A study of Mus musculus with 3 samples.

Results

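Intermediate filament genes were followed while mouse embryonic fibroblasts (MEFs) were reprogrammed towards pluripotency over 6 days and after transfection of siRNAs against chromatin and transcription regulators. The genes were taken by name: Vim, Nes, Lmna, Krt7, Krt8, Krt18 and Krt19, which are 7 of the 50507 genes in the count table. The cells were wild-type primary MEFs of the BL6 strain, reprogrammed at passage 2 on gelatin after transduction with tet-STEMCCA lentivirus, which carries Oct4, Sox2, Klf4 and c-Myc, and an rtTA lentivirus. Reprogramming was started, in the controls too, with a medium of doxycycline, chiron, an Alk5 inhibitor of TGF-beta signalling, ascorbic acid and LIF. Its addition was counted as day 0, so that the libraries of day 0 stand for cells not yet cultured in it. In the screen the transduced cells were first transfected with 40 nM of pooled siRNAs against 1 of 33 genes, with a non-targeting siRNA (nt) or without siRNA (Mock), and were read at day 6. The cells of the time course, day 0 to day 6, were re-plated but not transfected. Each culture held whatever mixture of responding and non-responding cells it contained, since the RNA was extracted in bulk, so fewer cells of a type and less RNA per cell cannot be told apart.

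Intermediate filaments are ropes of coiled-coil proteins, and cells swap one filament protein for another as they change type. Vimentin is the main filament of fibroblasts and other mesenchymal cells, whereas simple epithelia build filaments from obligate pairs of a type I and a type II keratin. Loss of mesenchymal genes and gain of epithelial genes is a known early step in the reprogramming of fibroblasts. Lamins A and C, both made from Lmna, line the nuclear envelope and are known to be low in pluripotent stem cells.

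Intermediate filament proteins share a conserved stretch at the end of the coiled-coil rod. The coding sequence of this rod end is shown because it is a feature that nestin, a nuclear lamin and the 4 keratins have in common. Each line gives 30 bases, 5′ to 3′, from a GENCODE vM21 transcript on GRCm38 (mm10), and capitals mark the 14 bases that are identical in the 6 genes shown.
Nes: gTggctaCaTAcaGgactcTGCTGGAGGct
Lmna: aTccatgCcTAtcGaaagcTGCTGGAGGgc
Krt7: aTcgccaCcTAccGcaagcTGCTGGAGGgc
Krt8: aTcaccaCcTAccGcaagcTGCTGGAGGgg
Krt18: aTtgccaCcTAccGccgctTGCTGGAGGat
Krt19: aTcgccaCcTAccGcagccTGCTGGAGGgc

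The stretch of Lmna lies at chr3:88484938-88484967 on the minus strand, in exon 6 of 12. The stretch of Krt8 lies at chr15:101997864-101997893 on the minus strand, in exon 7 of 9, and that of Krt7 at chr15:101423450-101423479 on the plus strand, in exon 7 of 9. Krt18 carries it at chr15:102031476-102031505 on the plus strand, in exon 6 of 7, and Krt19 at chr11:100140958-100140987 on the minus strand, in exon 6 of 6. In Nes the bases run across the junction of exons 2 and 3, within chr3:87973103-87974817 on the plus strand. Krt7 matched Krt8, also a type II keratin, and Krt19, a type I keratin, at 28 of 30 bases each. The most distant of these pairs, Lmna with Nes and Lmna with Krt18, matched at 17 of 30. Krt8 and Krt18, which encode a type II and type I keratin that assemble together, are separated by 23.7 kb on chromosome 15 and are transcribed from opposite strands. No exon of the 7 genes overlapped an exon of another gene on its own strand, and the 2 antisense genes that cross Krt7 and Krt8, Gm671 and Gm36026, had 0 counts. The end of Krt18 shared 50-base words with 1 other gene, Gm5200, which also had 0 counts, and the ends of the other 6 shared none.

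Of the 129 deposited libraries, 127 were used, namely 98 transfected with an siRNA, 3 nt, 5 Mock and 21 from untransfected days, in 42 conditions of 3 libraries each apart from Mock and from siMtf1, which had 2. The 5 Mock libraries were 2 each of replicates 1 and 2, under a shared column name, and 1 of replicate 3. The labels do not say whether the 2 of a replicate were separate cultures. Total counts ran from 29656 to 235292 per library with a median of 73279, and replicate 3 was the deepest with a median of 127079 against 64227 and 63122. The labels name only the 3 replicate pools, and the conditions come from the column names. Per the study's methods, the cells were transfected in triplicate and the replicates sequenced are independent, while no source used here says whether they came from separate isolates of MEFs. The name of an siRNA stands here for the libraries so named, since the counts did not show a knockdown for most of them. Many targets were too low to tell, and some with more counts were near or above the number expected from the other transfected libraries, with 106 counts of Hat1 against 99.5, 30 of Apex1 against 32.1, 58 of Set against 68.6 and 18 of Hdac1 against 9.95. Wdr5 had 2, 3 and 2 counts with siWdr5 against 2, 3 and 4 in nt. Bard1 had 0 counts in each siBard1 library against 2, 0 and 0, and Brca1 had 1, 1 and 2 counts with siBrca1 against 0, 1 and 1. These counts of Wdr5, Bard1 and Brca1 were too low to show or to contradict a knockdown. The paper reports efficient knockdown of these targets by RT-qPCR, on an earlier day of reprogramming than the libraries of the screen. Ep300 had 4, 4 and 9 counts with siEp300 against 0, 3 and 0 in nt. Eny2 had 4, 10 and 21 counts with siEny2 against 13, 7 and 12, and Pou5f1 had 0 counts in each siPou5f1 library against 1, 0 and 3.

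The 7 genes differed widely in how often they were counted. Over the 127 libraries, Vim gave 7612 counts and Lmna 1628, and both were counted in every library. Krt8 gave 288 counts, Nes 198, Krt18 134, Krt19 52 and Krt7 11. Only Vim and Lmna passed the filter on low counts, and the other 5 were tested in a second fit that also held the listed genes below the filter. CEL-Seq2 counts molecules at the 3′ end of transcripts, so that these values were not divided by gene length and are compared here between conditions and not between genes.

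Vim fell between day 1 and day 2 and was lowest on the last days of the time course. Its level, in CPM, the UMI count scaled to a common size of the TMM-adjusted library total, was 1601, 1842 and 1573 in the 3 libraries of day 0 and 1650, 1722 and 1321 on day 1. On day 2 it was 1114, 1077 and 866, on day 3 1067, 1192 and 968, and on day 4 1245, 871 and 965. On day 5 it was 863, 730 and 889, and on day 6 it was 979, 560 and 736. No library of day 2 or later reached the lowest library of day 0.

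By day 6 the fall of Vim against day 0 was 1.12 on the log2 scale (SE 0.18, n = 3 and 3, adjusted p 7.9e-08 by the edgeR quasi-likelihood test with Benjamini-Hochberg adjustment), with a mean of 759 ± 210 CPM (SD) against 1672 ± 148. In that comparison 22.2% of the 3013 genes passing the filter were called. Against day 0 the difference was already called on day 2, at -0.73 ± 0.17 (SE, edgeR adjusted p 0.00084), and it stayed called on day 3 at -0.65, day 4 at -0.72 and day 5 at -0.99. Of all genes, 11.6%, 10.9%, 18.7% and 31.9% were called on days 2 to 5. Among the 6 steps from one day to the next, the step from day 1 to day 2 was the one called, with a log2 difference of -0.62 ± 0.17 (edgeR adjusted p 0.014; 4.81% of genes were called in that step). That call held in 3 of 9 alternatives, and it was lost without any 1 of the 3 replicates (edgeR adjusted p 0.068, 0.14 and 0.11), with no replicate block (0.20), with no filter (0.19) and by limma (0.094). The calls on days 4, 5 and 6 against day 0 held in all 9, that on day 2 in 7 and that on day 3 in 5, where leaving out replicate 3 gave edgeR adjusted p of 0.071 and 0.15 and fitting day 3 with no replicate block gave 0.094. From day 2 to day 6 each daily step lay between -0.27 and 0.09, and none of these was called, with edgeR adjusted p from 0.41 to 0.90, while 2.82%, 11.9%, 4.78% and 7.87% of genes were called in them.

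**Figure D1:**
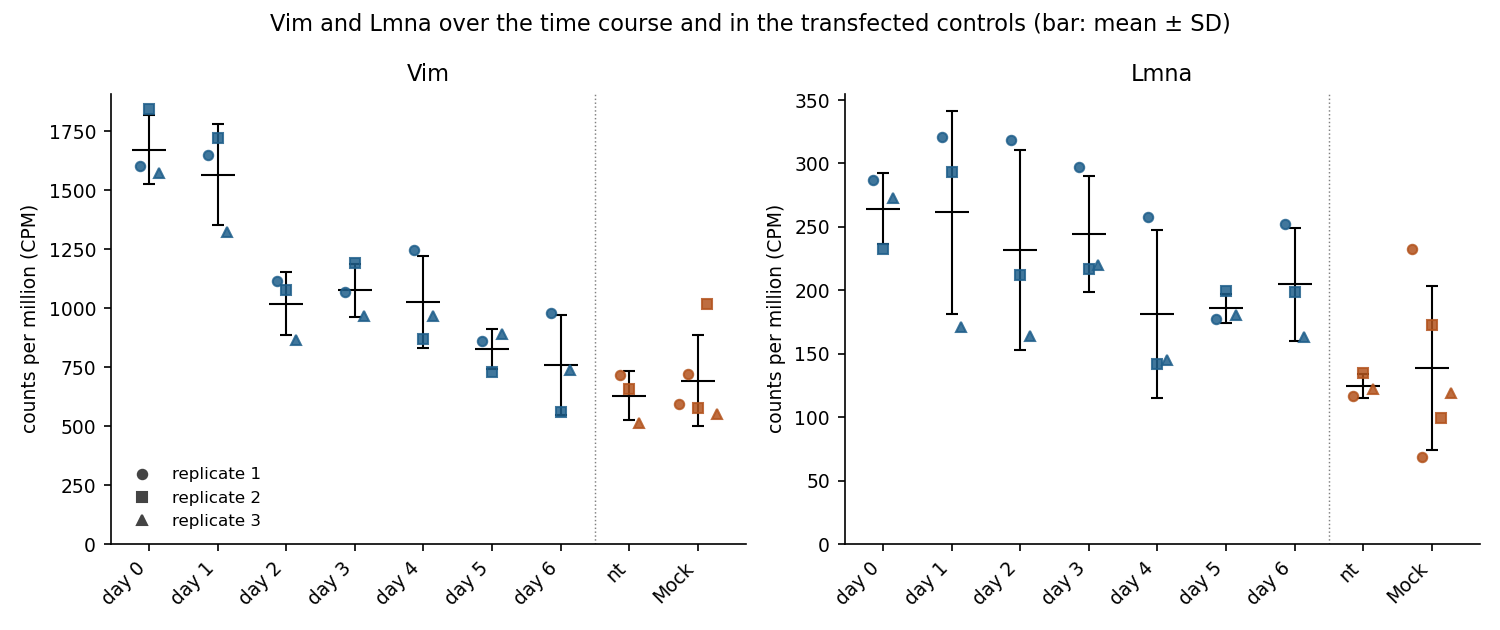
CPM of Vim (left) and Lmna (right) in each library of the time course, blue, and of nt and Mock, orange, with marker shapes for the replicate and bars for the mean ± SD. Vim lies between 1321 and 1842 CPM on days 0 and 1 and between 560 and 1245 from day 2 on, while Lmna overlaps between days 0 and 6.

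Lmna, which encodes lamins A and C, was not called between day 6 and day 0. It was at 287, 233 and 273 CPM on day 0 and at 252, 199 and 164 on day 6, so that the highest library of day 6 lay within the range of day 0. The log2 difference was -0.46 ± 0.32 (SE, n = 3 and 3, edgeR adjusted p 0.33), and 2 SE on either side allow values from -1.09 to 0.18. The lowest days were day 4, with a mean of 182 ± 66.1 CPM, and day 5, with 186 ± 11.7 against 264 ± 28.2 on day 0. All 3 libraries of day 5 lay below those of day 0, and neither day was called.

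Nes encodes nestin, a large filament protein of neural progenitors and other dividing cells that assembles together with vimentin. It had 1, 1 and 4 counts in the libraries of day 0 and 0, 1 and 3 on day 6, or 20.5, 21.2 and 33.1 CPM against 0, 18.1 and 20.5, where the ranges meet without overlap. Its highest mean was on day 3, at 44.7 ± 39.7 CPM, where replicate 2 alone reached 90.3. The fitted difference between day 6 and day 0 was -0.83 ± 1.00 (SE, edgeR adjusted p 0.62, second fit), so that neither a fall nor its absence was detectable at these counts.

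Krt8 and Krt18, the main keratin pair of simple epithelia, were nearly absent at the start and were counted more often on the last days. Krt8 had 1, 0 and 0 counts in the 3 libraries of day 0, none on days 1 and 3, 3 in all on day 2 and 2 in all on day 4. On day 5 it had 0, 3 and 2 counts, and on day 6 it had 0, 2 and 12, or 0, 36.1 and 81.8 CPM. Over the 6 libraries of days 5 and 6 there were 19 counts of Krt8 against 4 in the 12 libraries of days 0 to 3. Per scaled total this is a ratio of 7.50, with an exact 95% interval of 2.49 to 30.3 that covers counting error only and not the spread between libraries. Without replicate 3 of day 6, which held 12 of the 19 counts, the ratio was 3.70, with an interval of 0.94 to 17.2 that includes 1.

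Krt18, the type I partner of Krt8, followed a like course at lower counts. It had 0 counts on days 0 and 2 and 1 count on each of days 1, 3 and 4. On day 5 it had 1, 1 and 3 counts, so that every library of day 5 lay above the 3 libraries of day 0, and on day 6 it had 0, 0 and 4. With 3 counts over the group put in as the floor for day 0, day 5 was 1.17-fold higher. This leaves out the counting error of day 5, so it sets no lower limit on the rise. Days 5 and 6 together held 9 counts against 2 on days 0 to 3, 7.10 times the level (counting interval 1.47 to 67.6), or 5.29 times without replicate 3 of day 6 (0.87 to 55.5).

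By the fitted test Krt8 differed between day 6 and day 0 by 2.97 ± 1.11 on the log2 scale (SE, n = 3 and 3, edgeR adjusted p 0.038, second fit), and the groups overlapped at 0. With Vim this made 2 of the 7 genes called, Vim lower and Krt8 higher, which is near the share of all filtered genes called in this comparison, 22.2%. The 2 shares are not of like genes, since of the 7 only Vim and Lmna passed that filter. The call on Krt8 rested on replicate 3, which held 12 of its 14 counts on day 6: without replicate 3 the log2 difference was 0.55 and the edgeR adjusted p 0.92, and over the 9 alternatives the adjusted p ran from 0.0074 to 0.92, with 1 of them called. Krt18 was not called at 3.22 ± 1.72 (edgeR adjusted p 0.18), and neither gene was called on any other day against day 0 or between successive days.

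Krt19, a type I keratin of simple and glandular epithelia, had few counts on all days. It had 0, 1 and 3 counts on day 0 and 0, 0 and 2 on day 6, and over days 5 and 6 it had 5 counts against 8 on days 0 to 3, 0.99 times the level. The counting interval, 0.25 to 3.42, overlaps those of Krt8 and Krt18, and the difference from them was not tested. Krt7, a type II keratin of ducts and trophoblast, had 1 count in the whole time course, in a library of day 6.

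**Figure D2:**
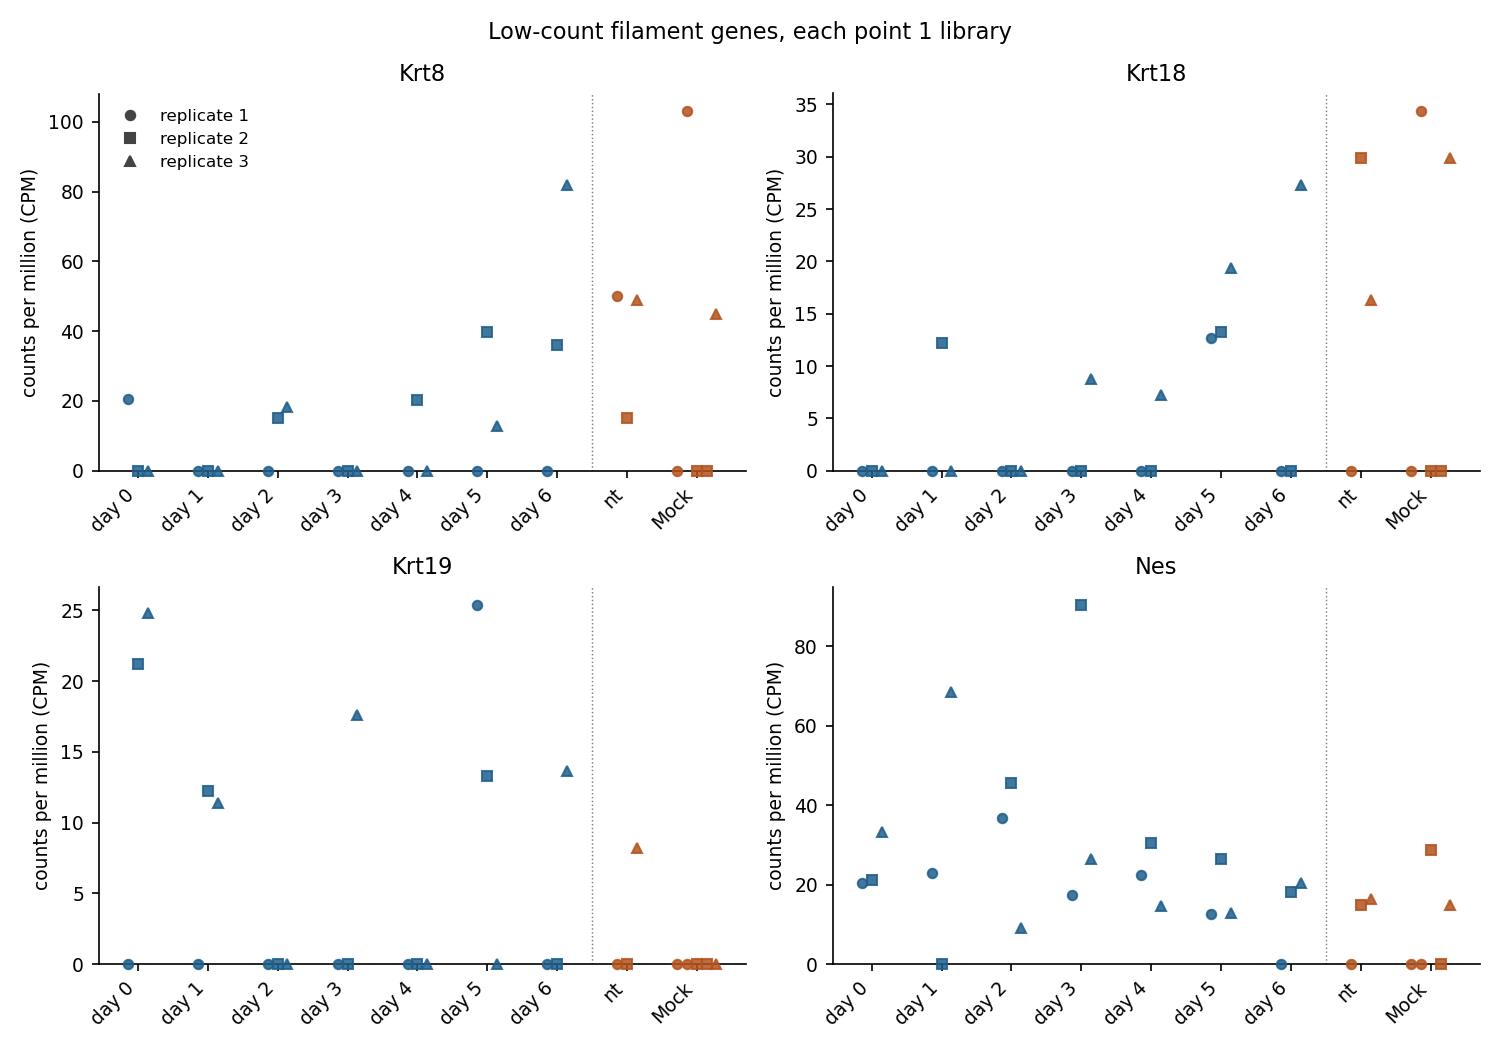
CPM of Krt8, Krt18, Krt19 and Nes in each library of the time course, blue, and of nt and Mock, orange, with marker shapes for the replicate and a separate vertical scale for each gene. Most libraries of days 0 to 4 lie at 0 for Krt8 and Krt18, and the highest point of the time course is replicate 3 of day 6 for both, at 81.8 and 27.3 CPM.

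Expressed as a share of the counts of the 7 genes, the 4 keratins went from 17 of 1841 counts on days 0 to 4 (0.92%, exact 95% binomial interval 0.54 to 1.47) to 34 of 618 on days 5 and 6 (5.50%, 3.84 to 7.60). Both parts of the share moved, since Vim was lower on the later days. On day 6 alone the share was 7.45% (4.67 to 11.2), and without replicate 3 it was 2.33%. All 6 libraries of days 5 and 6 held at least 1 keratin count, against 10 of the 15 libraries of days 0 to 4, which were not of the same depth.

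Genes that act with these filaments were counted from lists, which were chosen with earlier results of these data known. Of the 19 mesenchymal genes that passed the filter, 15 were called between day 6 and day 0, 14 lower and 1 higher, with a median log2 difference of -1.66 against 0.05 over all 3013 genes. Acta2, a smooth muscle actin, fell by 4.28 ± 0.24, Lox, which crosslinks collagen, fell by 4.45 ± 0.43, and Sparc, a matrix glycoprotein, fell by 1.66 ± 0.17, while Col6a1 rose by 1.58 ± 0.58 on the log2 scale (SE). Of the 23 genes of actin and microtubules that passed, 15 were called, all lower, among them Actb at -1.69 ± 0.16 and Tpm1 at -2.65 ± 0.25. Over all genes 22.2% were called in this comparison, in either direction.

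Among the other filament and linker genes, Nefl, the light neurofilament subunit, rose from 3 counts to 38, a log2 difference of 3.16 ± 0.66 (SE, edgeR adjusted p 5.5e-05), and it was the only 1 of 23 listed filament genes beyond the 7 to pass the filter. Of 5 nuclear lamina genes and 5 linker and desmosome genes that passed, 1 each was called, about the share of all genes, 22.2%. Zmpste24, the protease that matures prelamin A, fell by 1.15 ± 0.34 (edgeR adjusted p 0.0062). Perp, a desmosome protein, rose by 2.49 ± 0.64 (edgeR adjusted p 0.0012). No epithelial gene of the 20 listed passed the filter. In the second fit Cdh1, which encodes E-cadherin, was called higher with 13 counts against 0 (edgeR adjusted p 0.0064), and Epcam was called higher with 9 against 0 (edgeR adjusted p 0.025).

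The summed markers of other cell types differed between the first and the last day. The 8 fibroblast markers were at 4249 to 5843 CPM on day 0 and at 1841 to 2418 on day 6, with none at 0. They were already at 1765 to 2223 CPM on day 1, when Vim was still at 1321 to 1722, and at 2204 to 3036 on day 2, when Vim had fallen, so that the sum and Vim did not drop at the same step. The 9 epithelial markers were at 0 to 33.1 CPM with 7 of 9 at 0 on day 0, and at 74.2 to 217 CPM with 4 of 9 at 0 on day 6. The 5 leukocyte markers went from 124 to 205 CPM down to 18.1 to 89.0, with 3 of 5 at 0 on either day. Of these 5 only Lyz2 passed the filter, and it made up most of the sum on day 0. It was called lower, at 42.5 ± 40.3 CPM (10 counts) against 152 ± 30.5 (31 counts, edgeR adjusted p 0.035). The part of a changed mixture of cells in the fall of Vim was not tested.

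The controls of the screen were compared with untransfected cells of the same day and gave no called difference in the filament genes. Vim was at 716, 658 and 515 CPM in nt, at 594, 721, 577, 1018 and 552 in Mock and at 979, 560 and 736 on day 6. Lmna was at 117, 135 and 123 CPM in nt, below the 164 to 252 of day 6, and at 68.7 to 232 in Mock. Krt8 had 3, 1 and 6 counts in nt and 14 in all on day 6, so that day 6 was at 1.3 times the level of nt (counting interval 0.54 to 3.26). The direction turned without replicate 3 of day 6, with 2 counts left and a ratio of 0.41 (0.043 to 1.91).

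None of the 7 genes was called by edgeR between nt and day 6, where 26.6% of genes were called, or between Mock and nt, where 1.56% were. At an unadjusted p under 0.05 there were also 0 in each comparison by edgeR. DESeq2 and limma called none after adjustment either, while between nt and day 6 the unadjusted p was under 0.05 for Vim and Lmna by DESeq2 and for Lmna by limma. The log2 difference of nt from day 6 was -0.32 ± 0.20 for Vim and -0.64 ± 0.36 for Lmna (SE, edgeR adjusted p 0.23 and 0.18), and the interval of 2 SE for Lmna, -1.36 to 0.08, does not leave out a fall of more than 2-fold. In the same comparison 6 of 19 mesenchymal and 10 of 23 cytoskeletal genes were called, all lower in nt, and so were the linkers Plec and Macf1.

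Across the 33 siRNAs, 9 of the 231 pairs of an siRNA and a filament gene were called against nt (3.90%), 8 of them higher and 1 lower. All 9 were of the 2 genes that passed the filter, Vim, with 5 of 33 siRNAs (15.2%), and Lmna, with 4 of 33 (12.1%), or 13.6% of their 66 pairs. Over all filtered genes 2.57% of the 99429 pairs were called, 1.29% higher and 1.28% lower, with no matching of genes by how often they were counted. These comparisons share the 3 nt libraries, so that a low or high nt value enters all of them. Vim lay above nt with 27 of the 33 siRNAs, 15 pairs of Vim had an unadjusted p under 0.05, and Lmna lay above nt with 22. Over all libraries with an siRNA, Vim was at 1.23 times its level in nt and Mock combined (counting interval 1.10 to 1.39) and Lmna at 1.32 times (1.02 to 1.74). These intervals cover counting error only, and not the spread between libraries or between siRNAs. Of the 3013 genes, 4.15% were called with at least 5 siRNAs and 6.14% with at least 4.

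Vim was highest among siRNAs with siEp300 and siWdr5. Ep300 encodes a histone acetyltransferase and Wdr5 a core subunit of the complexes that methylate lysine 4 of histone H3. With siWdr5, Vim was at 1241, 1308 and 1253 CPM, above all nt libraries with an SD of 35.4. The log2 difference from nt was 1.04 ± 0.19 (SE, n = 3 and 3, edgeR adjusted p 2.9e-06), where 27.2% of genes were called. It was called in each of 10 alternatives.

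With siEp300, Vim was at 1644, 1078 and 1118 CPM, again above every nt library. The log2 difference was 1.03 ± 0.18 (SE, edgeR adjusted p 1.2e-05; 5.68% of genes called), and the call was lost in 1 of 10 alternatives, limma on the deposited log2 values. Either mean, 1267 ± 35.4 with siWdr5 and 1280 ± 316 with siEp300, lay between those of day 1 and day 3 of the time course, 1565 ± 214 and 1076 ± 113.

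Bard1 encodes the partner of the ubiquitin ligase Brca1. With siBard1, Vim was at 1118, 1182 and 750 CPM, and the log2 difference from nt was 0.67 ± 0.19 (SE, edgeR adjusted p 0.012; 10.3% of genes called). Eny2 is a subunit of the SAGA complex, which modifies histones. With siEny2, Vim was at 1267, 1109 and 708 CPM, where replicate 3 fell just below the highest nt library, and the difference was 0.68 ± 0.19 (SE, edgeR adjusted p 0.034; 1.89% of genes called). Both calls were lost without replicate 1, without replicate 2 or without replicate 3, with edgeR adjusted p from 0.051 to 0.37, and over all alternatives the adjusted p ran from 0.0048 to 0.30 for siBard1 and from 0.012 to 1.00 for siEny2.

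Vim was lower with 1 siRNA, siPou5f1, which is directed at Oct4, a factor also supplied by the lentivirus. It was at 248, 544 and 180 CPM, so that replicate 2 overlapped nt, and its mean of 324 ± 193 was the lowest of the 42 conditions. The log2 difference was -1.06 ± 0.25 (SE, edgeR adjusted p 0.0022; 5.77% of genes called). The call was lost without replicate 1 and without replicate 3 (edgeR adjusted p 0.10 and 0.20), and over 10 alternatives the adjusted p ran from 0.00021 to 0.55. The next lowest means, 536 with siNcor1, 555 with siPhf1 and 593 with siSet, had libraries that overlapped nt.

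**Figure D3:**
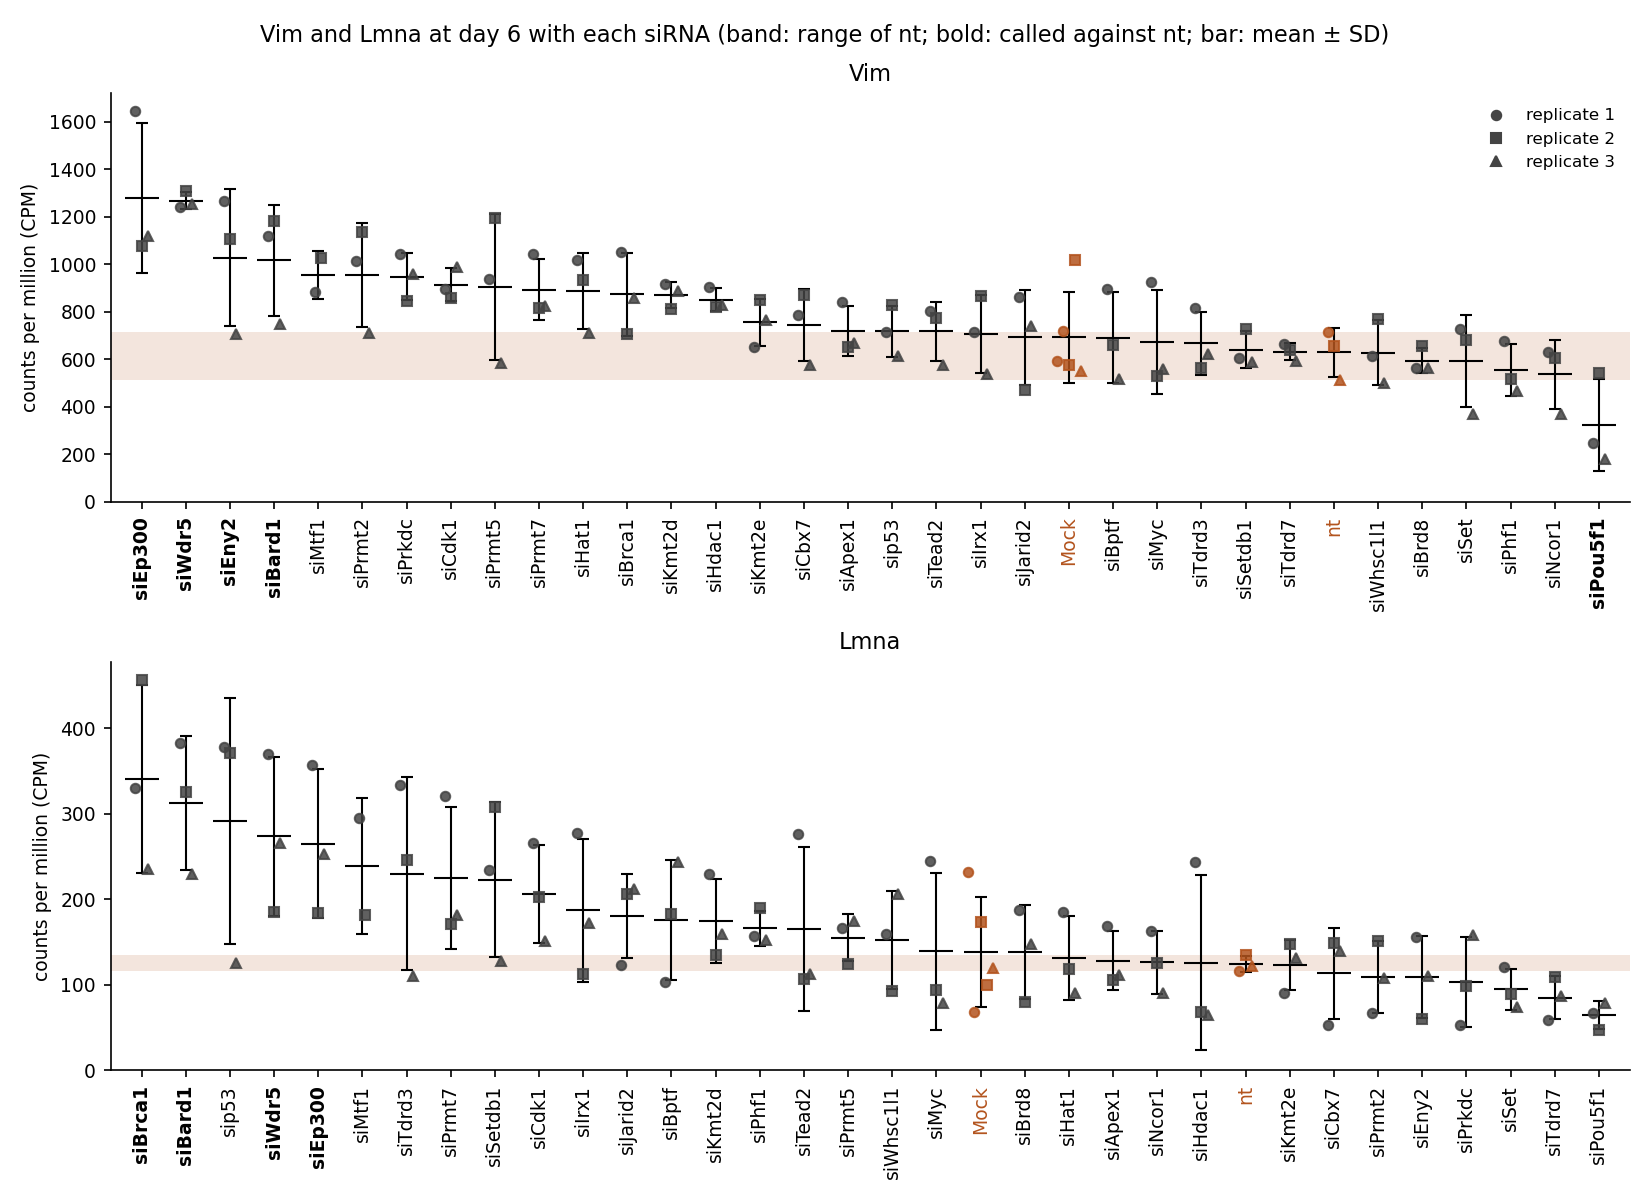
CPM of Vim (top) and Lmna (bottom) in the transfected libraries, with conditions in order of their mean, marker shapes for the replicate, bars for the mean ± SD and a band for the range of the 3 nt libraries. Names in bold were called against nt, and for Lmna the 4 called siRNAs stand among the 5 highest means, from 265 to 341 CPM.

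Lmna was higher with siBrca1, siBard1, siWdr5 and siEp300. It was at 331, 456 and 236 CPM with siBrca1, at 383, 326 and 229 with siBard1, at 370, 185 and 266 with siWdr5 and at 357, 184 and 253 with siEp300. Each of these 12 libraries lay above the highest nt library, at 135 CPM, while Mock reached 232 CPM, above the lowest library of siBard1, siWdr5 and siEp300. The 3 nt libraries spread little for this gene, with an SD of 9.19 CPM against 64.7 in Mock. The Mock libraries were shallower, with totals of 38925 to 83089 counts against 75100 to 143156 in nt.

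The log2 difference of Lmna from nt was 1.34 ± 0.35 with siBrca1 (SE, n = 3 and 3, edgeR adjusted p 0.010; 4.22% of genes called), 1.22 ± 0.33 with siBard1 (edgeR adjusted p 0.0069), 1.09 ± 0.34 with siWdr5 (edgeR adjusted p 0.0092) and 1.07 ± 0.33 with siEp300 (edgeR adjusted p 0.030). When the Mock libraries were added to nt as controls, all 4 were still called. Without replicate 1 none of the 4 was called (edgeR adjusted p 0.066 to 0.24), and without a filter on low counts none was (0.13 to 0.40), while without replicate 2 there were 2 and without replicate 3 there was 1. With no replicate block 2 of the 4 were called, and by limma 1 was. Over all alternatives the adjusted p of the 4 ran from 0.0011 to 0.94. With sip53 the mean was as high, at 291 ± 144 CPM, but its libraries lay between 125 and 378 and it was not called. The lowest mean was with siPou5f1, at 64.6 CPM and 3, 2 and 7 counts, which was not called either.

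Set against each other, the siRNAs of Wdr5, Bard1 and Brca1 gave no called difference in any of the 7 genes by edgeR, where 8.36% of genes were called between siWdr5 and siBard1, 9.99% between siWdr5 and siBrca1 and 0.863% between siBrca1 and siBard1. Vim was higher with siWdr5 than with siBrca1 by 0.52 ± 0.19 (SE, p 0.0056, edgeR adjusted p 0.055) and than with siBard1 by 0.37 ± 0.18 (p 0.036, edgeR adjusted p 0.19), and these were the 2 values with an unadjusted p under 0.05. Against nt, Vim with siBrca1 was at 1054, 707 and 860 CPM, and its difference of 0.51 ± 0.21 was not called (edgeR adjusted p 0.15). For Lmna the 3 differences between these siRNAs lay between -0.25 and 0.12, and the widest interval of 2 SE ran from -0.86 to 0.36.

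**Figure D4:**
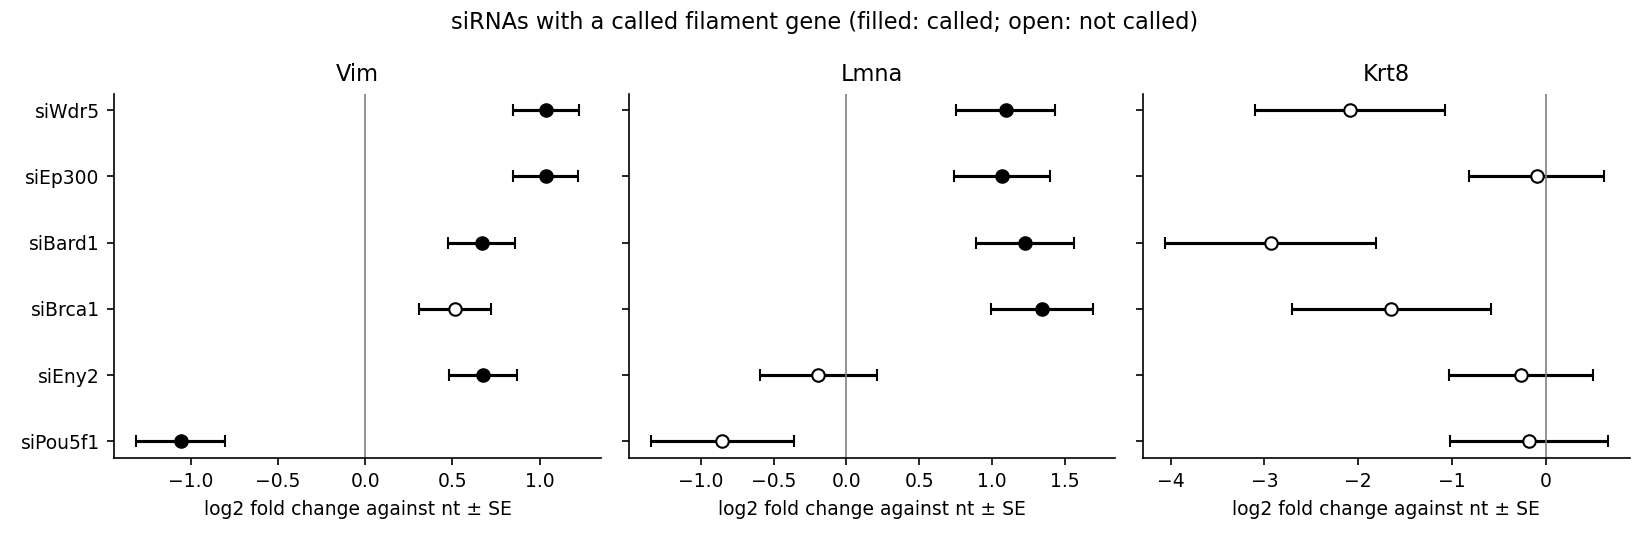
Log2 fold change against nt, with bars of 1 SE, for Vim, Lmna and Krt8 with the 6 siRNAs that had a called filament gene; filled points were called and open points were not. Vim and Lmna lie to the right of 0 together with siWdr5, siEp300, siBard1 and siBrca1, and Krt8 lies to the left for siWdr5 and siBard1 at -2.08 and -2.94, without a call.

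The other genes of the cytoskeleton gave the setting of these calls. With siWdr5, 13 of 19 mesenchymal genes and 9 of 23 genes of actin and microtubules were called higher and none lower, with Col1a1, a fibrillar collagen, at 1055 ± 110 CPM against 172 ± 35.5. The counts were 8 of 19 and 11 of 23 with siBard1, 4 of 19 and 6 of 23 with siBrca1 and 5 of 19 and 7 of 23 with siEp300, all higher. Over all genes, in either direction, 27.2% were called with siWdr5, 10.3% with siBard1, 4.22% with siBrca1 and 5.68% with siEp300. With siEny2 the median log2 differences of the mesenchymal and cytoskeletal genes were 0.43 and 0.068, against 1.36 and 0.89 with siWdr5. With siPou5f1, Col1a2 and Actb were called lower and Tubb5, a tubulin, higher. Plec, which encodes plectin, a linker of intermediate filaments to actin and to junctions, was called higher with siWdr5, at 1.31 ± 0.46 (SE, edgeR adjusted p 0.023), and with siBard1, at 1.41 ± 0.45 (edgeR adjusted p 0.025). In the second fit Syne1, a nesprin that ties the lamina to the cytoskeleton, was called higher with siWdr5, with 15 counts against 1 (edgeR adjusted p 0.010).

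The fibroblast markers were higher with several siRNAs, with and without a call on Vim or Lmna. Their sum was 1038 to 1152 CPM in nt, 3289 to 4025 with siWdr5, 1559 to 2411 with siBard1, 1596 to 2379 with siBrca1, 1248 to 2387 with siEp300, 1220 to 1573 with siEny2 and 686 to 766 with siPou5f1. Of the 8 markers none was at 0 in these groups apart from Pdgfrb with siEny2. The sums were not tested. Of the 6 markers that passed the filter, 4 were called higher with siWdr5, 3 with siBard1 and 2 each with siBrca1 and siEp300. With siEny2 none was called, and with siPou5f1 1 was called lower. With sip53 the sum lay within the range of siBard1, siBrca1 and siEp300, at 2025 to 2373 CPM, where Vim, at 718 ± 107 CPM, was not called. It was 1676 to 2617 with siCdk1 and 1387 to 2159 with siIrx1, where Vim was at 914 ± 68.6 and 707 ± 164 CPM, again without a call. The epithelial markers had a sum of 65.4 to 133 CPM in nt with 3 of 9 at 0, and of 13.2 to 56.9 with siWdr5 with 6 of 9 at 0. They reached at most 62.5 CPM with siBard1 and were at 41.3 to 114 with siBrca1, 71.5 to 113 with siEp300 and 89.9 to 250.2 with siEny2, so that they were not below nt in every condition of high Vim. With siPou5f1 they were at 45.1 to 113, and the 8 pluripotency markers were at 0 to 23.7 with 7 of 8 at 0, against 32.7 to 167 with 2 of 8 at 0 in nt. Pou5f1 is itself 1 of these markers. The pluripotency sum was also below nt with siWdr5, at 0 to 28.4 CPM, and it was at 109 to 165 with siEny2. No epithelial or pluripotency marker passed the filter. In the second fit none was called against nt with siWdr5, siBard1, siBrca1, siEp300, siEny2 or siPou5f1. The part of these markers in the values of Vim and Lmna was not tested.

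No keratin and no Nes value was called against nt with any of the 33 siRNAs by edgeR, nor by DESeq2, limma or any other alternative. At an unadjusted p under 0.05 there were 2 for Krt8, siWdr5 and siBard1, and 1 for Nes, siCdk1, all in the edgeR fit. Krt8 had 0, 1 and 1 counts with siWdr5 and 0, 0 and 1 with siBard1 against 3, 1 and 6 in nt, and in CPM no library of either reached the lowest nt library. The ratio to nt was 0.20 with a counting interval of 0.021 to 0.93 for siWdr5 and 0.094 with an interval of 0.0022 to 0.66 for siBard1 (edgeR adjusted p 0.11 and 0.079). With siBrca1 the counts were 0, 2 and 0, and they overlapped nt.

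Krt8 had its highest means with siSetdb1, at 58.5, 81.1 and 79.7 CPM, and with siTdrd7, at 97.6, 54.6 and 61.1 CPM. Setdb1 encodes a methyltransferase for lysine 9 of histone H3 and Tdrd7 a Tudor domain protein. All 6 of these libraries exceeded the highest nt library, at 50.0, but with 10 counts in nt as a whole neither was called. Single libraries of Mock and of day 6 reached 103 and 81.8 CPM, so that both siRNAs overlapped these controls. Next in order came siPrkdc at 68.5 ± 34.7, sip53 at 67.9 ± 13.9 and siSet at 66.7 ± 58.8, whose spreads overlap those of siSetdb1 and siTdrd7. The 3 libraries of sip53, at 57.0 to 83.6 CPM, also exceeded the highest nt library. Krt18 was also highest with siTdrd7, at 46.0 ± 24.1 CPM with 11 counts, followed by siSetdb1 and siEny2 at 37.7 ± 40.8 and 37.4 ± 19.1.

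Over all transfected libraries Krt8 had 263 counts in 106 libraries and Krt18 had 122. Per scaled total that was 8.25 times the level of days 0 to 3 for Krt8, with a counting interval of 3.18 to 30.5, and 7.65 times for Krt18, with 2.07 to 63.9. For these keratins the libraries with an siRNA were at 1.04 times (0.63 to 1.85) and 1.11 times (0.52 to 2.81) the level of nt and Mock. Over all 127 libraries, the time course included, the pair was counted together in 54 libraries, Krt8 alone in 40, Krt18 alone in 10 and neither in 23.

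Krt19 and Krt7 stayed at the limit of counting throughout the screen. Krt19 was counted in 27 of the 106 transfected libraries with at most 3 counts in any, and its highest mean was with sip53, at 33.2 ± 45.9 CPM from 4 counts. Krt7 had 10 counts in 7 transfected libraries and none in nt or Mock. Nes had its highest means with siSet and siJarid2, both at 52.8 CPM with SDs of 31.6 and 39.8, and it had 0 counts over the 3 libraries of siPhf1.

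The share of keratins among the filament counts varied from 0.767% with siWdr5 (3 of 391 counts, 95% interval 0.159 to 2.23) to 14.7% with siTdrd7 (28 of 190, 10.0 to 20.6), with 7.54% in nt (15 of 199, 4.28 to 12.1). The shares of days 0 to 4, 0.756% to 1.18%, lay within the interval of siWdr5, and those of siBard1 and siBrca1 were 1.51% (0.492 to 3.49) and 2.27% (0.742 to 5.22). Low shares were not limited to these siRNAs, with 1.80% for siBrd8 (0.372 to 5.16) and 2.36% for siNcor1 (0.490 to 6.75). Mean Vim with siBrd8 and siNcor1 was 594 and 536 CPM, without a call. With siEp300, where Vim was as high as with siWdr5, the share was 4.26% (2.75 to 6.28) from 24 keratin counts. With siPou5f1 it was 11.1% (4.92 to 20.7) on 8 keratin counts, where Vim was low. The intervals cover counting error only, and the shares were not tested.

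**Figure D5:**
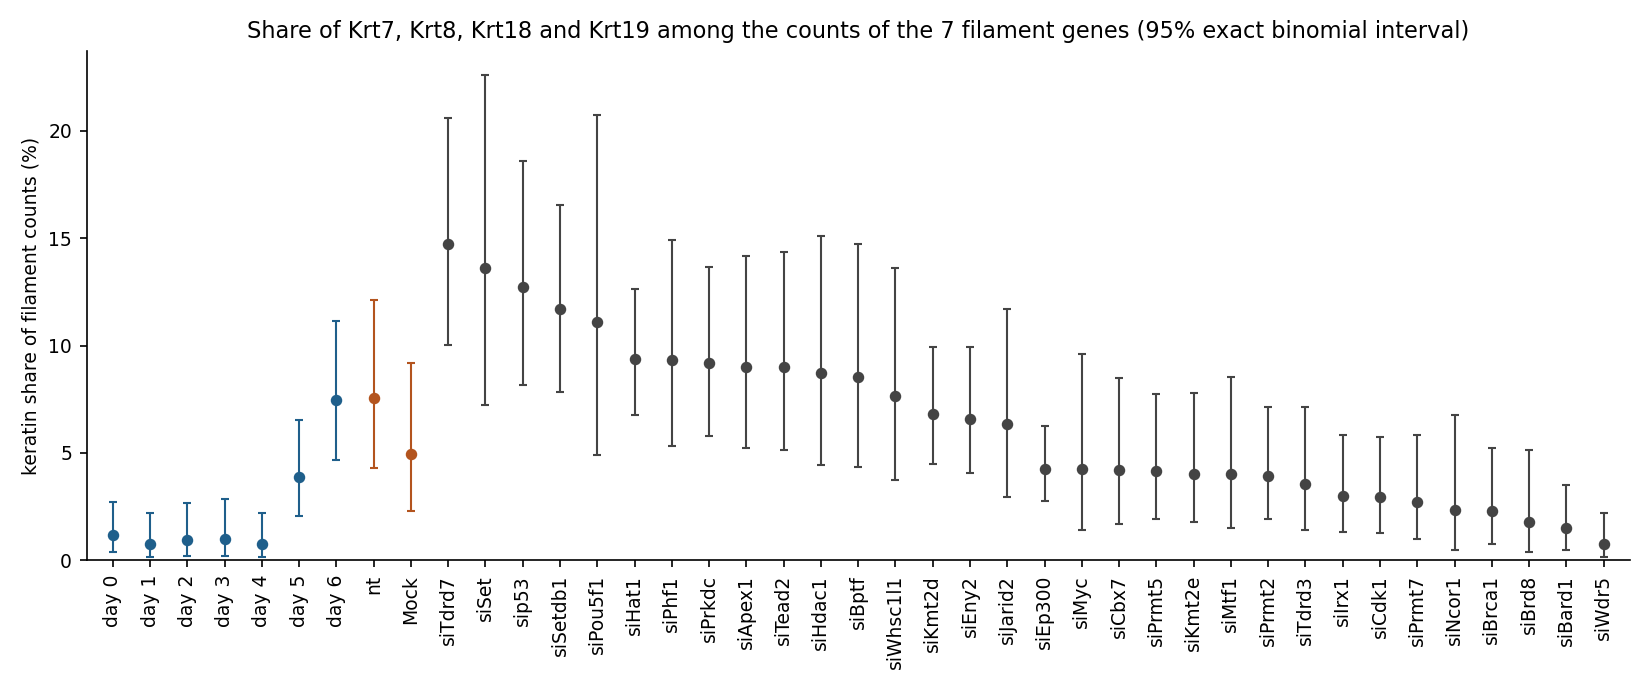
Share of Krt7, Krt8, Krt18 and Krt19 among the counts of the 7 filament genes, in percent, for each day (blue), nt and Mock (orange) and the siRNAs in order of their share (grey), with exact 95% binomial intervals. The share is at or under 1.18% on days 0 to 4, 3.87% on day 5 and 7.45% on day 6, and siWdr5 and siBard1 have the 2 lowest shares of the screen.

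Over the 42 conditions, the genes whose mean log2 CPM was most like that of Vim were Actb, with a Pearson r of 0.871, Prrx1, a mesenchymal homeobox gene, with 0.852, and Nedd4, a ubiquitin ligase, with 0.827. Those most like Lmna were Prrx2, a relative of Prrx1, with 0.819, Timp2, an inhibitor of matrix proteases, with 0.783, and Sgpl1 with 0.765. Vim and Lmna themselves correlated at 0.563, where 415 genes were closer to Vim than Lmna was. The conditions share the 3 replicate pools and differ in depth, so these values describe the pattern only, and the 5 genes of low counts were not ranked.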

How the data were processed

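RNA of bulk cultures was measured by CEL-Seq2 in 3 barcoded pools, 1 per replicate. Alignment by the authors used Bowtie2 and the mm10 genome, with UMI correction by the CEL-Seq2 software on GENCODE vM13 genes, and they deposited unnormalized UMI counts per gene symbol. The authors also deposited log2 values, normalized and with the batch regressed out, which served only for an alternative with limma and to choose libraries: a Mock library of 6403 counts and an siMtf1 library of 7981 are not in that table and were left out. The Mock column of replicate 3 was matched to its counts by correlation (r 0.925 against 0.0318). Counting of 3′ ends gives low counts for rare transcripts, and PCR copies were collapsed by UMI.

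From the counts, edgeR 4.0.16 (R 4.3.3) fitted 127 libraries with TMM scaling, filterByExpr by condition (3013 genes), a term per condition and the replicate as a block, with a quasi-likelihood test and Benjamini-Hochberg adjustment within a comparison at 0.05. A second fit, of 3115 genes, added the listed genes that the filter removed. SE were taken from the test statistic. CPM use the TMM-scaled total. The deviations of same-numbered libraries had a median correlation of 0.0981, against -0.0685 for different numbers, and 0.0578, 0.0861 and 0.220 within replicates 1, 2 and 3; the labels give the number as the sequenced pool. Ratios of counts have exact 95% Poisson intervals, with a floor of 3 counts for groups at 0.

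Named were all 7 genes, the list genes of lowest p in each direction, siWdr5, siBard1, siBrca1, siRNAs with a call and those of highest or lowest mean; siPrkdc, siJarid2, siCdk1, siIrx1, siNcor1 and other conditions next in order were named after their values were seen. The genes and lists were chosen with earlier results of these data known. Alternatives were RLE scaling, DESeq2 1.42.0, limma 3.58.1, no filter, no block, only the compared libraries, nt and Mock as the control, and leaving out each replicate. The rod-end sequence of 1 gene and the values of 1 siRNA are not reported here, although that siRNA stayed in the fits and counts.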

Additional observations from a re-analysis of the deposited data

How the results depend on the processing

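Of 153 alternative values for the 16 called differences, 98 kept their call and direction, none changed sign, and the rest lost the call; Vim between day 6 and day 0 (-1.29 to -0.93), between days 4 and 5 and day 0 (-1.03 to -0.56 and -1.29 to -0.85), and Vim with siWdr5 (0.92 to 1.22) were called in every alternative run. Those of days 2 to 5, and the ratios of Krt8 and Krt18 without 1 library of day 6, were added after seeing the data. Called between day 6 and day 0 was 1 gene in place of 2 with RLE scaling, DESeq2, no filter, no replicate block, only the compared libraries and limma, and 1 to 2 without a replicate. With siWdr5 it was 1 in place of 2 with no filter and with limma, and 1 to 2 without a replicate. With siBard1 it was 0 in place of 2 with no filter and with limma, 1 with no replicate block, and 0 to 1 without a replicate. With siBrca1 it was 0 in place of 1 with no filter, no replicate block and without any replicate. Of the 9 called pairs over all siRNAs there were 3 with no filter, 5 with no replicate block, 2 with limma and 2 to 5 without a replicate, and 8 with only the compared libraries. There were 11 with RLE scaling, DESeq2, and nt and Mock as the control, where Vim was called with 7 siRNAs in place of 5, siCdk1 and siPrkdc being gained. The filter sets how many genes share the adjustment; the cause of the other losses was not tested. The keratin share, recomputed without each replicate after seeing the data, ran from 2.33% to 10.1% on day 6 and from 3.77% to 6.70% on days 5 and 6, where it was lowest without replicate 3. Among uncalled differences the sign changed, by limma, for Krt8 between nt and day 6 (0.084), Krt18 between Mock and nt (0.11) and Krt18 with siBrca1 (-0.089). It also changed without a replicate for Krt8 (-0.89 to 0.81) and Krt18 (-0.66 to 2.86) between nt and day 6, for Vim (-0.017 to 0.26), Lmna (-0.0046 to 0.21) and Krt18 (-0.92 to 1.13) between Mock and nt, and for Krt18 with siBrca1 (-2.88 to 0.96). RLE scaling moved the median of all genes to -0.11 between day 6 and day 0, to -0.14, -0.11 and -0.18 on days 2, 4 and 5 against day 0, and to 0.18 with siWdr5. Where siMtf1 was left with 1 library, it was taken to vary like the others. Totals of 29656 to 235292 counts per library limit what can be said of keratins and Nes.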

Other observations

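The 2 libraries left out of the tests held few counts of the filament genes. The siMtf1 library of replicate 3 had 5 counts of Vim and 2 of Lmna in 7981, and the Mock library of replicate 3 had 4 counts of Vim in 6403, with 0 counts of the other genes in each.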
